A study of Mus musculus with 6 samples.

Results

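A set of 8 inhibitory and anergy-related receptor genes was followed through single invariant natural killer T (iNKT) cells of 3 mouse organs. They were Pdcd1, Ctla4, Lag3, Tigit, Cd200, Izumo1r, Cd96 and Btla. The genes were taken by symbol from the 27998 genes in the gene lists, and each symbol matched 1 gene. The cells came from liver, spleen and lymph node of 5-week-old wild-type (WT) C57BL/6 mice. Cells bearing CD8 or B220 had been removed with magnetic beads before sorting with a CD1d tetramer and an antibody to TCR-β. Each organ had 2 libraries of 10x Chromium 3′ v2 chemistry (n = 2), which the study calls biological repeats. How many mice went into a library was not stated, so the tests below measure the spread between these libraries.

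iNKT cells are T cells with a near-invariant receptor that recognises lipids on CD1d, and they fall into subsets (iNKT1, iNKT2 and iNKT17) marked by the factors T-bet, high PLZF and RORγt. Inhibitory receptors lower the response of a T cell to its antigen receptor. PD-1 (from Pdcd1) and BTLA recruit phosphatases, CTLA-4 takes the ligands CD80 and CD86 from CD28, LAG-3 binds MHC class II, and TIGIT and CD96 compete with the activating receptor CD226 for CD155. CD200 is a surface ligand of the inhibitory receptor CD200R1, and folate receptor 4 (from Izumo1r) is a surface marker of regulatory and anergic T cells.

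The 6 libraries held 16532 cells after filtering of 16587 barcodes, with 2638 to 2861 cells and medians of 1470 to 3592 unique molecular identifiers (UMIs) per cell. Liver cells were deepest (medians of 3592 and 2880) against 1470 to 1730.5 in spleen and lymph node. Any 2 libraries shared 6 to 20 barcode sequences. Defining genes of the lineage were present in every library, Cd3e at 632 to 1165 and Zbtb16, which encodes PLZF, at 72.1 to 101 UMIs per 1000000 UMIs of the library (CPM), ribosomal and haemoglobin genes left out. Foxp3, which defines the regulatory T cells known for several of these receptors, had 1 and 2 UMIs in lymph node and 0 in every library of liver and spleen. Xist was found in the liver and spleen libraries and in no lymph node cell, and Y-linked genes only in the lymph node libraries. Sex and organ therefore cannot be told apart in any comparison with lymph node.

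Pdcd1 (ENSMUSG00000026285, chr1:94038305-94052553, minus strand, GRCm38) was the receptor gene that differed most between organs. Its level was 12.4 and 15.2 CPM for the pair of liver libraries. It was 11.7 and 16.8 for spleen, and reached 64.8 and 69.5 for lymph node. Liver and spleen overlapped, and both lymph node libraries stood above all 4 others. The log2 fold change was -2.35 ± 0.18 (SE) for liver against lymph node (adjusted p = 1.05e-12) and -2.22 ± 0.19 for spleen against lymph node (adjusted p = 6.05e-11). For liver against spleen it was -0.13 ± 0.22 (adjusted p = 0.706). These and the following values come from edgeR's quasi-likelihood test on the summed UMIs of all cells, with Benjamini-Hochberg adjustment over the 10242 genes tested.

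**Figure D1:**
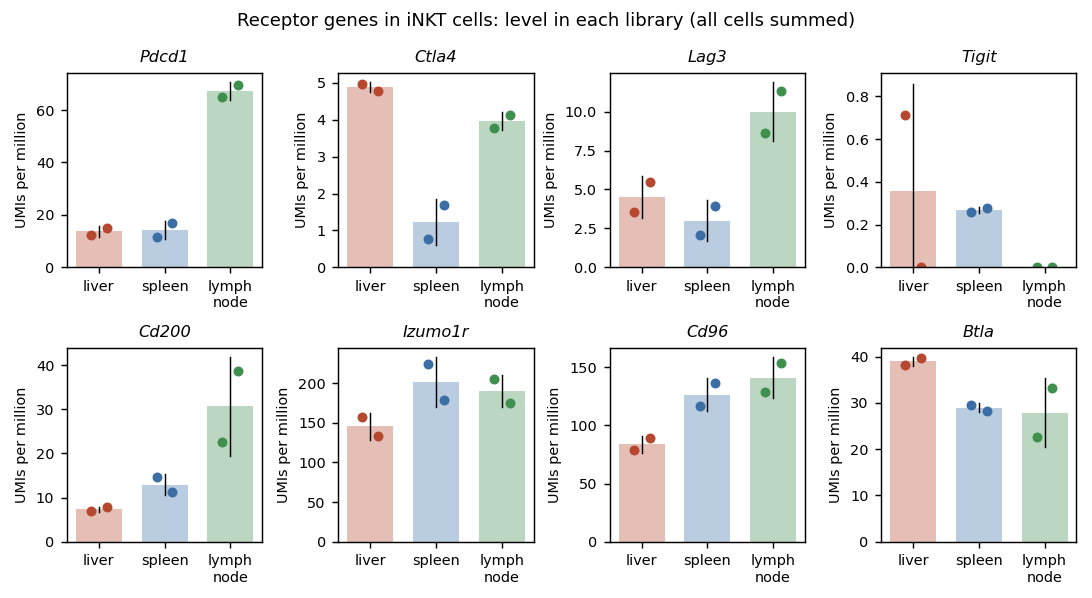
Level of each receptor gene in CPM (vertical axis, a separate scale for each gene) in the 2 libraries of each organ (points), with the mean (bar) and SD (line). The lymph node points of Pdcd1 lie at 64.8 and 69.5, above the 11.7 to 16.8 of liver and spleen, whereas Ctla4 and Btla are highest in liver and Izumo1r and Cd96 lowest there.

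Cd200 (ENSMUSG00000022661, chr16:45382135-45409053, minus strand) showed a graded pattern. Liver stood at 6.96 and 7.77 CPM, spleen at 14.6 and 11.2, and lymph node at 22.7 and 38.6. No 2 organs overlapped, but the lymph node libraries differed from each other by more than the liver or the spleen libraries did. Cd200 was lower in liver than in spleen (log2 fold change -0.89 ± 0.27, adjusted p = 0.0159) and lymph node (-2.12 ± 0.24, adjusted p = 2.83e-08), and lower in spleen than in lymph node (-1.23 ± 0.24, adjusted p = 0.00037). In liver replicate 2, 1 NF-kB-like cell held 8 of the 47 Cd200 UMIs. The spleen and lymph node call was lost without lymph node replicate 2 (adjusted p = 0.0755). The liver and spleen call was lost without liver replicate 1 (0.132), without spleen replicate 1 (0.143) and with all libraries thinned to 1 total (0.0517).

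The 250 bases before the start of Pdcd1 and of Cd200 are shown because these were the receptor genes with the largest differences between liver and lymph node. They are from RefSeq promoters (GRCm38.p6), at chr1:94052554-94052803 and chr16:45409054-45409303, and are written 5′ to 3′ along the gene. Capitals mark every match, on either strand, to 1 of 6 motifs: GGAAA (NFAT core), TGANTCA (AP-1), AAAGGTCA (NR4A), GCGNGGGCG (EGR), CACCTG (E protein) and TGTTTAC (FOXO).
Pdcd1: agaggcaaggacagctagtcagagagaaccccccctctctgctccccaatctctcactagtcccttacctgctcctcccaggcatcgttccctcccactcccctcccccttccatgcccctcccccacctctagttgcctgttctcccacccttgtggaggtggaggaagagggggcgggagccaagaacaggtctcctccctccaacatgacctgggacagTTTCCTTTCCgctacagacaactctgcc
Cd200: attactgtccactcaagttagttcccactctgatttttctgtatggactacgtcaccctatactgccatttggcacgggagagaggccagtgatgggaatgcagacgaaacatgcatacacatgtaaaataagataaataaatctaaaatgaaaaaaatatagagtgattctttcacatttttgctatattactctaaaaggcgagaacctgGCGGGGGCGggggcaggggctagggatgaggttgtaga
The Pdcd1 stretch held 2 GGAAA matches, both on the opposite strand and beginning 28 and 23 bases before the start. The Cd200 stretch held 1 match, GCGNGGGCG at 38 bases before the start. Of 32851 promoters of the same length, 55.6% held GGAAA and 4.70% held GCGNGGGCG on either strand. Promoter entries were found for 7 of the 8 genes, not for Lag3. None of the 7 stretches matched TGANTCA, AAAGGTCA or TGTTTAC, which 6.75%, 1.34% and 3.17% of all promoters held.

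Lag3 (ENSMUSG00000030124, chr6:124904361-124911705, minus strand, next to Cd4) was sparse. Liver held 25 and 33 UMIs (3.55 and 5.45 CPM), spleen 8 and 14 (2.08 and 3.91) and lymph node 32 and 41 (8.65 and 11.3). The lymph node libraries were highest, and liver and spleen overlapped. Lag3 was lower in liver (log2 fold change -1.22 ± 0.33, adjusted p = 0.00391) and in spleen (-1.72 ± 0.39, adjusted p = 0.00162) than in lymph node. The liver call was lost without liver replicate 1 (adjusted p = 0.0897) and without lymph node replicate 2 (0.0978). In liver replicate 1, 1 cell held 7 of the 25 Lag3 UMIs.

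Ctla4 (ENSMUSG00000026011, chr1:60887000-60915832, plus strand) lies between Cd28, 114 kb away, and Icos, 62.1 kb away, and contains the same-strand pseudogene Rpl18-ps1. Liver had 35 and 29 of its UMIs (4.97 and 4.79 CPM), spleen 3 and 6 (0.780 and 1.68) and lymph node 14 and 15 (3.78 and 4.14). Spleen lay lowest, liver highest, and no organs overlapped. Ctla4 was higher in liver than in spleen (log2 fold change 1.91 ± 0.49, adjusted p = 0.00458) and lower in spleen than in lymph node (-1.67 ± 0.55, adjusted p = 0.0298). The difference of liver and lymph node did not pass the test (0.24 ± 0.38, adjusted p = 0.652). Both calls rested on the 3 and 6 spleen UMIs and were lost without spleen replicate 1 (adjusted p = 0.0889 and 0.249). The spleen against lymph node call was also lost without either lymph node library (0.101 and 0.154).

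Izumo1r (ENSMUSG00000031933, chr9:14885814-14903949, minus strand) was found in 14.9% to 26.1% of the cells of a library. Levels were 158 and 133 CPM for liver, 224 and 179 for spleen, and 205 and 175 for lymph node. The 4 spleen and lymph node libraries overlapped and stood above both liver libraries. Izumo1r was lower in liver than in spleen (log2 fold change -0.55 ± 0.12, adjusted p = 0.00127) and than in lymph node (-0.45 ± 0.12, adjusted p = 0.00427). Spleen and lymph node differed by 0.10 ± 0.12 (adjusted p = 0.642). The liver and spleen call was lost without spleen replicate 1 (adjusted p = 0.052), and the liver and lymph node call without liver replicate 2 (0.0576) or lymph node replicate 1 (0.122).

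Cd96 (ENSMUSG00000022657, chr16:46035657-46120251, minus strand) was also lowest in liver, with 78.7 and 89.0 CPM. Spleen stood at 116 and 136 and lymph node at 128 and 154. Spleen and lymph node overlapped. Cd96 was lower in liver than in spleen (log2 fold change -0.67 ± 0.13, adjusted p = 0.000258) and lymph node (-0.81 ± 0.13, adjusted p = 5.88e-06), and both calls held with any 1 library left out. Spleen and lymph node differed by -0.14 ± 0.13 (adjusted p = 0.505).

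Btla (ENSMUSG00000052013, chr16:45224315-45257670, plus strand) lies 124 kb from Cd200. Its level was 38.2 and 39.7 CPM for liver, 29.6 and 28.2 for spleen, and 22.7 and 33.1 for lymph node. Both liver libraries were above the 4 others, and the lymph node libraries spanned those of spleen. No organ difference of Btla passed this test (adjusted p = 0.129, 0.0509 and 0.841), the closest being liver against lymph node with a log2 fold change of 0.42 ± 0.17. That difference passed without lymph node replicate 2 (adjusted p = 0.0173), without spleen replicate 1 (0.0426) and without spleen replicate 2 (0.0416). It also passed with genes of low counts kept (0.0285), with libraries thinned to 1 total (0.0209), without the 2% of cells with most UMIs (0.0217) and with a replicate block (0.0322), so its call depended on the setting.

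Tigit (ENSMUSG00000071552, chr16:43648867-43664146, minus strand) was close to absent from the counts. It had 5 UMIs in 5 cells of liver replicate 1, 1 UMI in each spleen library and 0 UMIs in the other 3 libraries. The 5 cells were 0.179% of that library (95% Wilson interval 0.0763% to 0.417%). A count of 0 allows a share of up to 0.105% of the 2861 cells of liver replicate 2, and of up to 0.114% and 0.105% of the 2638 and 2848 lymph node cells. These limits cover counting error only. Tigit was under the filter on low counts and was not tested. With Cd200, Cd96 and Btla it lies in 2.47 Mb of chromosome 16 that hold 35 protein-coding genes. Of these neighbours, Cd200 and Cd96 were lowest in liver and Btla highest there.

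Of the 7 receptor genes tested, 4 passed for liver against spleen (1 higher in liver, 3 in spleen), 5 for liver against lymph node and 4 for spleen against lymph node, where all 5 and all 4 were higher in lymph node. These were 57.1%, 71.4% and 57.1% of the 7, beside 25.9%, 37.5% and 18.2% of all genes tested. By direction, 12.8% of all genes were called higher in liver and 13.1% in spleen. Against lymph node, 18.0% were called higher in liver and 19.6% lower there, and 7.90% were called higher in spleen and 10.3% lower there. The median log2 fold change of the 7 genes was -0.13, -0.81 and -1.23, beside 0.02, 0.01 and 0.00 over all genes. The comparisons share libraries and are not independent of each other. Under DESeq2 the counts were 2, 4 and 3, beside 1438, 2571 and 1139 of all 10242 genes. The calls lost were Cd200 (adjusted p = 0.0671) and Ctla4 (0.0592) for liver against spleen, Lag3 for liver against lymph node (0.0529) and Ctla4 for spleen against lymph node (0.156).

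The cells were next divided into classes, to set the organs side by side within a class. Clusters were formed without the 8 receptor genes and named from marker lists. Of the lymph node cells, 33.1% ± 1.74 (SD, n = 2) were iNKT17-like and 13.5% ± 1.19 were iNKT2-like, against 1.06% ± 0.284 and 0.105% ± 0.148 of liver cells and 1.43% ± 0.471 and 0.314% ± 0.178 of spleen cells. The share of iNKT1-like cells was 66.6% in liver (69.3% and 63.9% of the libraries), 69.4% ± 2.16 in spleen and 11.7% ± 1.69 in lymph node. A further 29.4% ± 1.28 of lymph node cells, with 4.62% ± 1.19 of liver and 1.93% ± 0.593 of spleen cells, had raised iNKT1 markers but were led by other genes and stayed unnamed. Nearly all of these in lymph node lay in cluster 4, led by the immediate early genes Dusp1, Ppp1r15a and Nr4a1 and the NF-kB target Tnfaip3, and by the Y-linked genes Ddx3y and Eif2s3y. The iNKT2-like cluster had 3 of its 7 markers at least 2-fold up, and was led by Nrgn, Ccr10, Ccl1 and Id3. A cluster of 30 cells, 6 and 15 of them from the liver libraries, held both B-cell and myeloid markers.

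With the clusters used here, Pdcd1 within the lymph node lay mainly in the iNKT2-like cells. It stood at 248 and 268 CPM in the iNKT2-like cells of the 2 libraries, at 32.6 and 38.7 in iNKT1-like cells and at 9.52 and 17.8 in iNKT17-like cells. iNKT2-like cells held 64.0% of the Pdcd1 UMIs of the organ, 60.3% of those of Cd200 and 56.2% of those of Lag3, while being 13.5% of its cells. Cd200 reached 81.0 and 144 CPM in them against 3.62 and 11.9 in iNKT1-like cells, and Lag3 24.5 and 43.8 against 14.5 and 5.96. The 50 and 60 cycling cells of the lymph node had 73.5 and 79.2 CPM of Pdcd1. They had 21.0 and 57.2 of Cd200, and 10.5 and 26.4 of Lag3. At the lower clustering resolution no iNKT2-like cluster was formed, and 1464 of 2638 and 1554 of 2848 lymph node cells were iNKT1-like. Those cells held 197 of 240 and 190 of 252 Pdcd1 UMIs, at 106 and 109 CPM. They also held 61 of 84 and 99 of 140 Cd200 UMIs and 21 of 32 and 30 of 41 Lag3 UMIs. All these values are a description with no test.

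**Figure D2:**
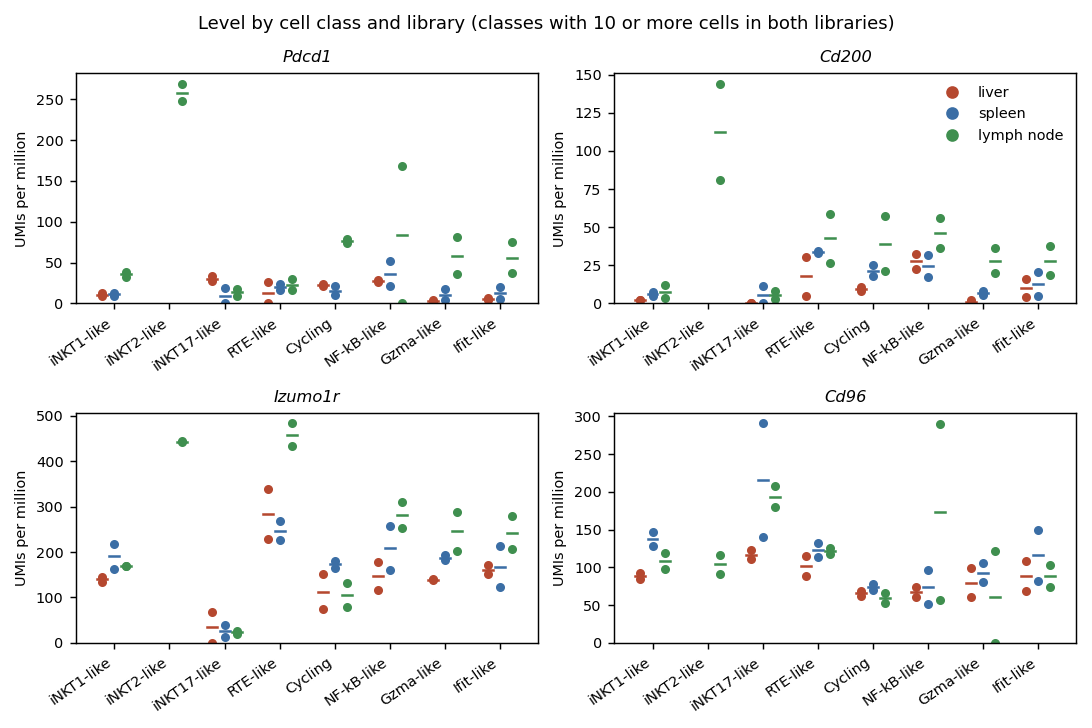
Level of Pdcd1, Cd200, Izumo1r and Cd96 in CPM (vertical axis) by cell class (horizontal axis) and organ (colour), with a point for each library and a bar at the mean. Pdcd1 and Cd200 are highest in the iNKT2-like cells of the lymph node, Izumo1r is lowest and Cd96 is high in the iNKT17-like cells, and classes of few cells scatter widely.

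Izumo1r and Cd96 divided the iNKT2-like and iNKT17-like cells of the lymph node in opposite ways. Izumo1r was at 443 and 444 CPM in the lymph node iNKT2-like cells and at 483 and 434 in the cells with markers of recent thymic emigrants (RTE-like), against 27.0 and 20.1 in the iNKT17-like cells. The highest pooled value, 843 CPM over 144 cells, was in an RTE-like cluster of which 73 and 62 cells came from the lymph node libraries and whose leading genes included Dapl1, Ccr7 and Cd8b1. The lymph node cells of that cluster stood at 963 and 682.5 CPM of Izumo1r. The 52 and 46 lymph node cells of the other RTE-like cluster stood at 130 and 253. Cd96 was at 179 and 208 CPM in iNKT17-like cells of the lymph node, which held 49.0% of its UMIs there. It was at 91.7 and 116 in the iNKT2-like cells and at 118 and 125 in the RTE-like cells. Cycling cells of the lymph node had 131 and 79.2 for Izumo1r and 52.5 and 66.0 for Cd96. Btla was at 21.4 and 28.2 in the iNKT17-like cells and at 21.4 and 57.9 in the iNKT2-like cells. Its highest lymph node values, 84.3 and 72.4 in NF-kB-like cells, rest on 3 and 2 UMIs.

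**Figure D3:**
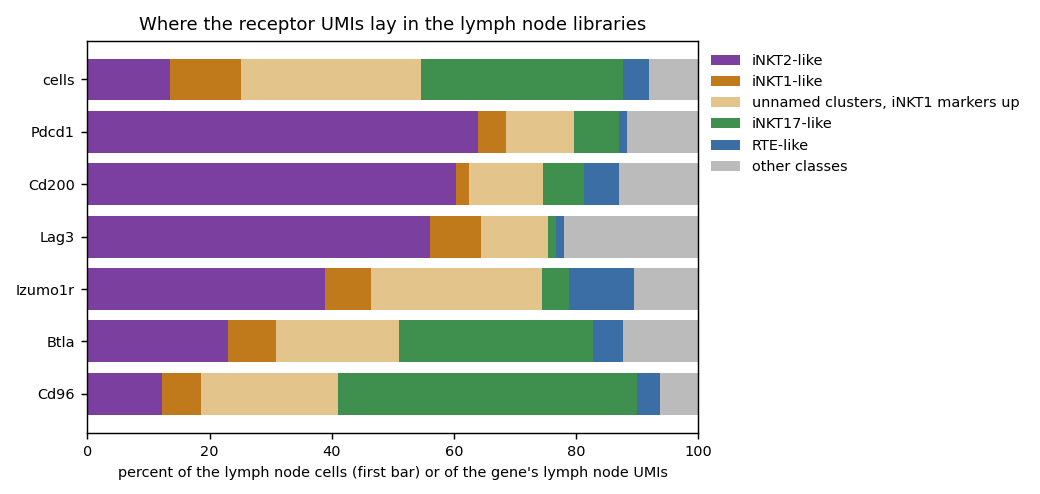
Division of the lymph node cells (top bar) and of the lymph node UMIs of 6 receptor genes (other bars) over the cell classes, in percent. iNKT2-like cells are 13.5% of the cells and hold 64.0% of Pdcd1, 60.3% of Cd200 and 56.2% of Lag3 UMIs, whereas iNKT17-like cells hold 49.0% of Cd96 UMIs.

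In liver, Ctla4 and Lag3 were spread over several classes. Liver iNKT1-like cells held 45.3% of the Ctla4 UMIs and 25.9% of the Lag3 UMIs while being 66.5% of the cells. NF-kB-like cells, 9.24% of the cells, held 7 of 35 and 7 of 29 Ctla4 UMIs and 21 of 87 and 23 of 92 Pdcd1 UMIs in the 2 liver libraries. Their part of the Lag3 UMIs differed between the libraries, at 2 of 25 and 12 of 33. In the unnamed cluster 11, which held 130 and 53 cells of the liver libraries and was led by genes such as Itga4, Casp1 and Klrg1, Ctla4 stood at 17.3 and 25.3 CPM and Lag3 at 34.6 and 42.1. In liver iNKT1-like cells the same genes stood at 4.07 and 3.24, and at 2.26 and 1.47. These levels rest on 5 and 3 Ctla4 UMIs and 10 and 5 Lag3 UMIs in cluster 11, and 7 of the 10 Lag3 UMIs of liver replicate 1 came from 1 cell.

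The organ comparison was repeated without the iNKT2-like cells, a setting chosen after the data were seen. Pdcd1 remained lower in liver (log2 fold change -1.17, adjusted p = 5.03e-05) and in spleen (-1.02, adjusted p = 0.00137) than in lymph node. Cd200 remained lower in liver (-1.05, adjusted p = 0.00316), but its difference between spleen and lymph node did not pass (-0.19, adjusted p = 0.706). Lag3 passed in neither comparison, liver giving a log2 fold change of -0.30 (adjusted p = 0.583) and spleen one of -0.94 (adjusted p = 0.173). Izumo1r no longer passed for liver against lymph node (-0.02, adjusted p = 0.933), and was now higher in spleen than in lymph node (0.52, adjusted p = 0.00345). Cd96 remained lower in liver than in lymph node (-0.89, adjusted p = 8.77e-07), and Btla was now higher in liver than in lymph node (0.53, adjusted p = 0.0146). Without the cluster of B-cell and myeloid markers, the calls numbered 4, 5 and 4 as in all cells, beside 2660, 3851 and 1870 of 10247 genes.

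Within iNKT1-like cells, 6 of the 8 genes were tested. The bounds of this class were set after a look at the receptor levels in the clusters. The tests within it, here and in the next paragraph, are therefore not independent of that choice. Pdcd1 levels were 8.60 and 13.3 CPM for liver, 9.68 and 12.6 for spleen, and 32.6 and 38.7 for lymph node, where both libraries were above the others. It was lower in liver (log2 fold change -1.81 ± 0.43, adjusted p = 0.000828) and in spleen (-1.67 ± 0.44, adjusted p = 0.00822) than in lymph node. These 2 were the only receptor calls against lymph node, where 12.1% and 3.78% of the 9323 genes passed. Of all genes, 6.75% were called lower and 5.32% higher in liver, and 2.45% lower and 1.33% higher in spleen. They rested on 9 and 13 lymph node UMIs and were lost without lymph node replicate 2 (adjusted p = 0.102 and 0.252). The spleen call was also lost without spleen replicate 1 (0.0978).

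Between liver and spleen, 4 receptor genes passed within iNKT1-like cells, where 23.0% of all genes did (11.4% higher in liver and 11.6% in spleen). Cd96 (84.2 and 92.9 CPM in liver, 128 and 146 in spleen) and Izumo1r (146 and 135 in liver, 217 and 164 in spleen) were lower in liver, with log2 fold changes of -0.72 ± 0.14 (adjusted p = 1.09e-05) and -0.53 ± 0.13 (adjusted p = 0.000942). Cd200 was lower in liver (-1.55 ± 0.54, adjusted p = 0.0226) on 10 and 7 UMIs in liver and 17 and 10 in spleen. Btla was higher in liver (39.1 and 38.0 against 26.4 and 23.3 CPM, log2 fold change 0.55 ± 0.20, adjusted p = 0.0319). The Cd96 call held with any 1 library left out, and the Izumo1r call was lost without spleen replicate 1 (adjusted p = 0.189). The Cd200 and Btla calls were each lost without any 1 of the 4 liver and spleen libraries (adjusted p from 0.0573 to 0.312). The Btla call was also lost under DESeq2 (0.232), at lower and higher clustering resolution (0.0655 and 0.0608) and with the unnamed clusters kept (0.071). With all libraries thinned to 1 total, the Cd96 and Izumo1r calls were lost. Their log2 fold changes were then -0.82 (adjusted p = 0.0511) and -0.31 (adjusted p = 0.497). The class was made of different clusters by organ, mostly cluster 1 in liver, cluster 0 in spleen and cluster 3 in lymph node with 154 of 276 and 165 of 366 cells. Tsix, the antisense partner of Xist, was among the leading genes of cluster 0.

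**Figure D4:**
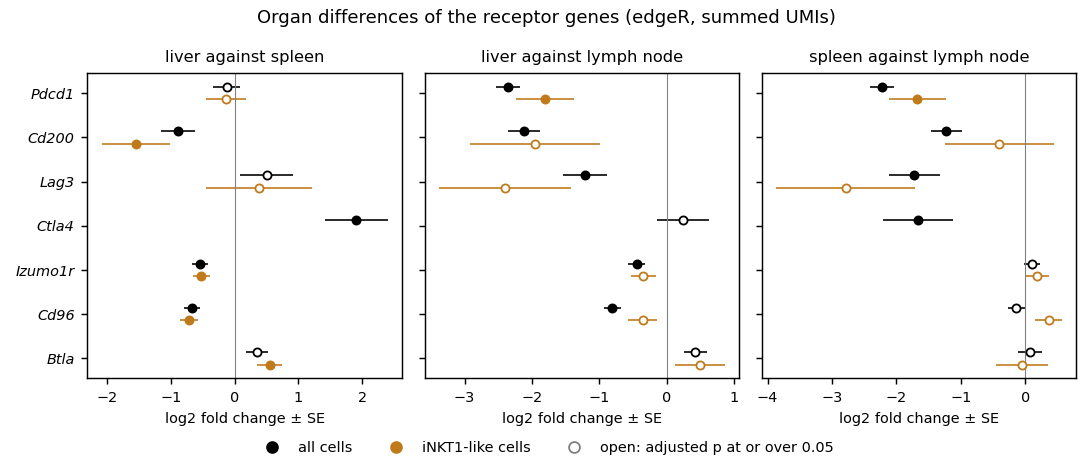
Log2 fold change with SE (horizontal axis, a separate scale for each panel) of 7 receptor genes in the 3 organ comparisons, over all cells (black) and over iNKT1-like cells (orange), with filled points at an adjusted p under 0.05. Pdcd1 lies left of 0 in both comparisons with lymph node for all cells and for iNKT1-like cells, and is not called between liver and spleen.

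How often a receptor was seen in a cell depended on depth. As deposited, Izumo1r was detected in 22.9% ± 4.44 (SD, n = 2) of liver cells, 19.2% ± 2.39 of spleen cells and 16.7% ± 2.53 of lymph node cells. With each cell thinned to 1000 UMIs, ribosomal and haemoglobin genes included, the order turned, to 8.22% ± 0.471, 11.4% ± 1.67 and 11.3% ± 0.807. Thinning left out 0 and 9 liver, 144 and 169 spleen and 265 and 488 lymph node cells with fewer UMIs. Pdcd1 went from 2.79% ± 0.0581, 1.80% ± 0.271 and 6.57% ± 0.356 of cells as deposited to 0.760% ± 0.145, 0.870% ± 0.142 and 3.84% ± 0.254 when thinned. In the 30 cells of B-cell and myeloid markers, whose median was 1902 UMIs, 2 held an Izumo1r UMI (6.67%, 95% Wilson interval 1.85% to 21.3%) and 0 held a Pdcd1 UMI, which allows up to 10%. Cd200 was found in 5 of the 30 (16.7%, interval 7.34% to 33.6%), Btla in 4 (13.3%, interval 5.31% to 29.7%), Lag3 in 2 (6.67%) and Cd96 in 1 (3.33%). The shares of Cd200, Btla and Lag3 were above those in every whole library as deposited, at most 3.62%, 9.10% and 1.19%. The Btla interval includes 9.10%, and the Lag3 share rests on 2 cells (interval 1.85% to 21.3%). The 30 cells were pooled over libraries, and the intervals cover counting error only. CD200 and BTLA are also known from B cells, so these 30 cells give no background level for them. After thinning, a cell held at least 1 UMI of any receptor gene in 16.7% ± 0.369 of cells from liver, 22.2% ± 0.763 from spleen and 25.8% ± 1.69 from lymph node. Cells with UMIs of 3 or more receptor genes were at most 0.0430% of thinned liver and spleen cells and 0.171% and 0.469% of the 2 lymph node libraries.

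Co-detection was measured as the number of cells with UMIs of both genes over the number that independent detection would give in the same library. At 1000 UMIs per cell, 6 combinations of a gene pair and an organ had an expected number of at least 5 cells in both libraries. In lymph node, Pdcd1 and Izumo1r met in 24.2 and 29.7 cells against 10.3 and 10.2 expected, ratios of 2.35 and 2.92. Pairs of like detection were all pairs of other genes found in 1.19% to 11.9% and 2.34% to 10.75% of cells, with at least 5 expected. Over these pairs in the same libraries, the median ratio was 0.996 and 0.994 and the 99th percentile 1.53 and 1.59. They were not matched on the expected number, and ratios spread more where fewer cells are expected. As deposited, without thinning, 82 and 79 cells held both Pdcd1 and Izumo1r, against 33.3 and 26.9 expected.

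Pdcd1 and Cd96 met less often than independent detection would give, with ratios of 0.477 and 0.624, below the 10th percentile of the pairs of like detection (0.755 and 0.727). Izumo1r and Cd96 had ratios of 0.836 and 0.688 in lymph node, the latter also below the 10th percentile of its library. In liver, Izumo1r with Cd96 (0.958 and 1.12) and with Btla (0.963 and 1.13) lay on both sides of 1. So did Izumo1r with Cd96 in spleen (0.740 and 1.00), where 0.740 was below the 10th percentile of its library (0.762). Taking the expected number within each cluster moved the lymph node ratio of Pdcd1 and Izumo1r to a mean of 1.53 ± 0.183 and that of Pdcd1 and Cd96 to 0.629 and 0.764. Without the iNKT2-like cells the former was 2.48 and 3.04, on 3.07 and 3.43 expected cells.

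**Figure D5:**
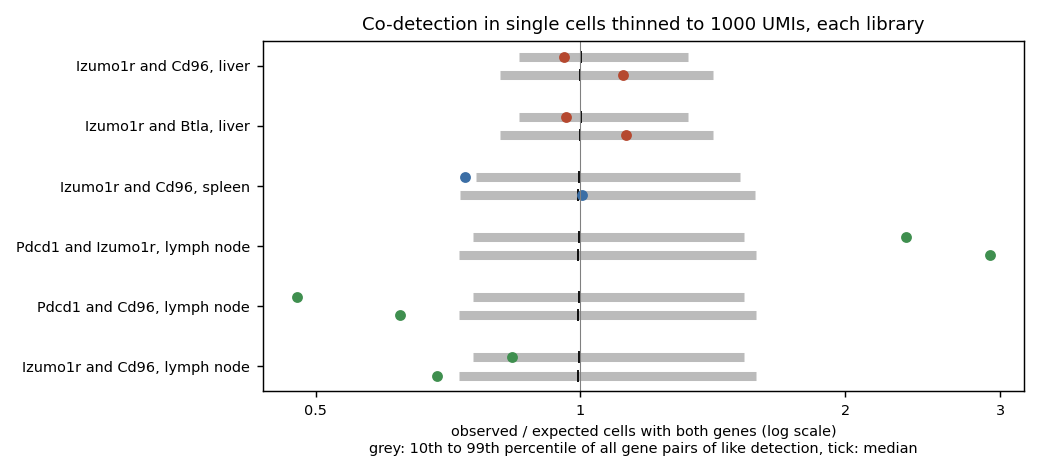
Ratio of observed to expected cells with both genes (horizontal axis, log scale) for the 6 combinations with enough cells, in each of the 2 libraries (points), over the range from the 10th to the 99th percentile of all gene pairs of like detection in that library (grey) and their median (tick). In lymph node, Pdcd1 and Izumo1r lie at 2.35 and 2.92, right of the grey range, and Pdcd1 and Cd96 at 0.477 and 0.624, left of it. Izumo1r and Cd96 also lie left of the grey range in lymph node replicate 2 (0.688) and spleen replicate 1 (0.740).

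The remaining pairs were too sparse for a ratio at that depth, and only counts as deposited are given. In lymph node, Pdcd1 and Cd200 were both found in 22 and 27 cells (4.30 and 6.51 expected), Pdcd1 and Lag3 in 8 and 10 cells (1.71 and 2.15 expected), and Cd200 and Izumo1r in 28 and 48 cells (11.7 and 15.4 expected). These counts were not thinned, and cells with more UMIs hold more UMIs of both genes. Within clusters, at 1000 UMIs per cell, Pdcd1 and Cd200 were expected in 2.86 and 5.25 cells and met in 4.56 and 8.83.

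For each receptor gene, the genes most raised in cells with its UMI were sought in the organ of its highest level, over both libraries at 1000 UMIs per cell. For Pdcd1 in lymph node these were Cd160 (log2 ratios of 1.68 and 1.85), which encodes another receptor for the BTLA partner HVEM, Id3 (1.64 and 2.21), an inhibitor of E proteins, and Izumo1r itself (1.55 and 1.66), among 461 genes with enough UMIs. For Cd200 in lymph node the first was Ifi27l2a (0.82 and 1.03), followed by Skap1 and the costimulatory receptor gene Cd28 (0.55 and 0.54). For Lag3, Ifi27l2a also came first (1.43 and 1.57), then S100a11 and Rac2, among 31 genes. For Izumo1r in spleen they were Rgs10 (0.94 and 0.63), Pura and Gps1, for Cd96 in lymph node Anapc5 (0.51 and 0.71), Hk2 and Elmo1, and for Btla in liver Cd37 (0.48 and 0.70), Nme1 and Timm13. Ctla4 in liver had 7 and 6 such cells, enough for 13 genes only, led by AW112010 (0.68 and 1.24), B2m and Eef1a1.

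Of 30 ligands, paired and related receptors of the 8 genes, 21 were tested. Of these, 5 passed for liver against spleen (4 higher in liver), 15 for liver against lymph node (12 higher in liver) and 11 for spleen against lymph node (7 higher in spleen). These were 23.8%, 71.4% and 52.4% of the 21, beside 25.9%, 37.5% and 18.2% of all genes. Of all genes, 12.8%, 18.0% and 7.90% were called higher in the first organ of each comparison. Their median log2 fold changes were 0.09, 0.57 and 0.43. Cd226, the activating counterpart of Tigit and Cd96, had 222 and 228 CPM for liver, 204 and 196 for spleen, and 108 and 97.1 for lymph node. It was higher in spleen than in lymph node (log2 fold change 0.98 ± 0.12, adjusted p = 1.11e-07). Cd160 was higher in spleen than in lymph node (475 and 389 against 126 and 107 CPM, log2 fold change 1.91 ± 0.13, adjusted p = 1.11e-13), as was Klrg1 (1.15 ± 0.39, adjusted p = 0.0377).

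The costimulatory receptor genes on either side of Ctla4 were both lower in liver than in lymph node. Icos, with 322 and 312 CPM for liver, 382 and 407 for spleen and 860 and 959 for lymph node, was lower in liver (log2 fold change -1.58 ± 0.12, adjusted p = 8.10e-13) and in spleen (-1.19 ± 0.12, adjusted p = 1.36e-09) than in lymph node, and lower in liver than in spleen (-0.39 ± 0.12, adjusted p = 0.0124). Cd28 was lower in liver than in lymph node (-1.03 ± 0.11, adjusted p = 8.11e-09). Nt5e, which encodes the ectoenzyme CD73, was lower in liver (-1.04 ± 0.18, adjusted p = 2.16e-05) and spleen (-1.42 ± 0.20, adjusted p = 1.91e-06) than in lymph node. Entpd1, which encodes CD39, was highest in liver (28.3 and 26.9 CPM, against 4.41 to 12.0 elsewhere). It was higher there than in spleen (1.30 ± 0.23, adjusted p = 7.02e-05) and lymph node (2.13 ± 0.25, adjusted p = 2.56e-08). Tnfsf14, a ligand of HVEM, and Pvr, which encodes CD155, were higher in liver than in spleen (0.82 ± 0.14 and 0.76 ± 0.17, adjusted p = 0.000127 and 0.00127). Cd244 and Icosl were higher in liver than in lymph node (2.03 ± 0.60 and 1.73 ± 0.43, adjusted p = 0.00768 and 0.00183), and Cd86 was lower in spleen than in lymph node (-1.85 ± 0.50, adjusted p = 0.00803).

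Of 30 genes of anergy and receptor signalling, 28 were tested. Of these, 14 passed for liver against spleen (10 higher in liver), 20 for liver against lymph node (11 higher in liver) and 11 for spleen against lymph node (3 higher in spleen). These were 50%, 71.4% and 39.3% of the 28, beside 25.9%, 37.5% and 18.2% of all genes. Their median log2 fold changes were 0.31, -0.07 and -0.21. Nr4a1, an immediate early gene of receptor signalling, had 6.11 and 12.7 CPM for liver, 5.46 and 7.55 for spleen, and 95.4 and 83.3 for lymph node. It was lower in liver (log2 fold change -3.33 ± 0.23, adjusted p = 4.95e-09) and spleen (-3.76 ± 0.27, adjusted p = 1.69e-08) than in lymph node. Its relative Nr4a2 was at 11.1 and 13.0 CPM in lymph node against 0.142 and 0 in liver and 1.04 and 0.559 in spleen. Egr2 (-1.74 ± 0.39, adjusted p = 0.00172) was lower in spleen than in lymph node, and Tox2 (-2.50 ± 0.53, adjusted p = 0.000343) lower in liver than in lymph node.

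Several other genes of this list were higher in liver than in spleen, lymph node or both. Prdm1, a transcriptional repressor, had 20.6 and 19.2 CPM for liver, 14.6 and 12.9 for spleen, and 9.19 and 6.62 for lymph node, and was higher in liver (1.26 ± 0.24, adjusted p = 7.96e-05) and in spleen (0.81 ± 0.26, adjusted p = 0.0292) than in lymph node. Irf4 was higher in liver than in spleen (1.05 ± 0.30, adjusted p = 0.0105) and lymph node (1.41 ± 0.32, adjusted p = 0.000642). Rnf128 (1.49 ± 0.44, adjusted p = 0.0121), a ubiquitin ligase also called GRAIL, and Nfatc1 (0.91 ± 0.13, adjusted p = 7.36e-06) were higher in liver than in spleen, and the ubiquitin ligase gene Cblb was higher in liver than in lymph node (0.98 ± 0.17, adjusted p = 1.60e-05). Ikzf2, which encodes Helios, and Tob1 were lower in liver than in spleen (-1.11 ± 0.11 and -0.75 ± 0.13, adjusted p = 1.40e-08 and 4.27e-05). Nedd4 and Sh2d1a were higher in spleen than in lymph node (0.46 ± 0.16 and 0.39 ± 0.11, adjusted p = 0.0386 and 0.0128).

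Lists of markers of other cells were summed in each library. The 5 measured B-cell markers, 1 to 5 of them detected, reached 2.52 to 17.2 CPM, and 7 myeloid markers 271 to 393. The CD8 T cell list reached 2.48 to 7.10, natural killer cells 0 to 7.43, hepatocytes 0 to 0.552 and erythroid cells 401 and 592 in liver against at most 0.280 elsewhere. The 3 measured follicular helper markers, of a T cell type known for Pdcd1, were all detected. They summed to 4.40 and 5.29 CPM for liver, 2.60 and 2.52 for spleen, and 14.6 and 11.3 for lymph node, highest where Pdcd1 was highest. The part of these markers in the organ differences was not tested, apart from the calls without the 30 cells given above. The regulatory T cell list of 4 genes gave 63.8 and 61.6 CPM for liver, 20.0 and 21.5 for spleen, and 32.4 and 40.0 for lymph node, mostly from Il2ra, with Foxp3 at 0 to 2 UMIs a library.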

How the data were processed

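Per the labels, iNKT cells were sorted from 3 organs (6 libraries, 10x Chromium 3′ v2 chemistry). Processing notes of the submitters name Cell Ranger 3.1.0, Seurat and the mm10 build. The matrices, as deposited, hold raw counts of UMIs per gene and cell. Lists deposited beside them give cell barcodes and gene names, which are other values than counts.

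Cells kept had 300 to 4000 genes and at most 15% mitochondrial UMIs, which removed 55 of 16587 barcodes, and 123 ribosomal and haemoglobin genes were left out of totals and tests. No doublets were removed, but the 2% of cells with most UMIs in each library were left out as an alternative. Library totals were 4768016 to 11086603 UMIs, and counts of fewer than about 10 UMIs per library give little precision.

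The genes, lists and comparisons were chosen with earlier results of these data known. Clusters were formed without the 8 receptor genes (3000 variable genes, 20 principal components, 20 neighbours, leidenalg 0.10.2 at resolution 1.4). The resolution, the naming thresholds and the choice to leave clusters unnamed came after a look at the clusters and at the receptor levels in them. A cluster was named where the median log2 fold of a marker list was at least 0.75 with at least 3 markers 2-fold up. The others were iNKT1-like where the median over iNKT2-like, iNKT17-like and RTE-like cells was at least 1, unless more of their 10 leading genes marked another class. The names need not match those of the study.

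UMIs were summed per library and tested with edgeR 4.0.16 (filterByExpr, TMM, robust quasi-likelihood fit, organ as only term, all 6 libraries, R 4.3.3). SE is the log2 fold change over the root of the F statistic. Alternatives were DESeq2 1.42.0, other normalization, filters and depths, each library left out and a replicate block. Shares and co-detection used the expected detection after thinning each cell to 1000 UMIs. The named genes were all 8 receptor genes, up to 3 per direction, comparison and list by size of the change, and the 3 genes most raised with each receptor gene. Steps were tested on simulated data. Positions are from GENCODE vM21 (GRCm38), matched by Ensembl identifier, and promoters from RefSeq. The labels call the extracted molecule nuclear RNA, although whole cells were sorted.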

Additional observations from a re-analysis of the deposited data

How the results depend on the processing

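The number of the 8 receptor genes called in liver against spleen over all cells went from 4 to 2 under DESeq2, and to 1 to 4 with 1 library left out. It was 4 to 6 for liver against lymph node and 2 to 4 for spleen against lymph node with 1 library left out. Within iNKT1-like cells, the calls between liver and spleen (4) became 2 under DESeq2 and 1 to 4 with 1 library left out. Those against lymph node (1 each) became 0 to 1 for liver and 0 to 2 for spleen with 1 library left out. Under DESeq2, Cd200 had no adjusted p for liver against spleen in iNKT1-like cells (log2 fold change -1.57). It was counted as a lost call, here and below. Libraries thinned to 1 total, that of the smallest library, left 0 calls in each of the 3 comparisons of iNKT1-like cells, with 2 receptor genes tested. Of the 4922 genes tested there, 328, 609 and 195 were called. Lower clustering resolution, at which no iNKT2-like cluster was formed, gave 5 calls for liver against lymph node and 4 for spleen against lymph node. Calls over all genes rose there too, to 3100 and 1379 of 9500, from 1125 and 352 of 9323 in the main fit. Higher resolution gave 2 receptor calls for liver against lymph node, beside 1127 of 9447 genes. Keeping the unnamed clusters in the class, chosen after the data were seen, gave 4 for liver against lymph node. The added calls were Cd200, Izumo1r and Cd96, and 2506 of 9381 genes were called. With the sample number of the labels as a replicate block, the calls over all cells were 4, 6 and 4, the added one being Btla for liver against lymph node (adjusted p = 0.0322), and those in iNKT1-like cells 4, 1 and 1. Over all genes, the block gave 3068, 4172 and 2142 calls of 10242, and 2436, 1203 and 421 of 9323 in iNKT1-like cells. Same-numbered libraries deviated together with correlations of 0.157, 0.116 and 0.0989 across genes, and the numbers were not taken as pairs.

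In refits of single receptor genes, 530 kept their side of the threshold, 40 lost a call, 21 gained one and no called direction turned. Of the 10242 genes tested in all cells, DESeq2 called 1438, 2571 and 1139, against 2651, 3845 and 1868 by edgeR. Without lymph node replicate 2, edgeR called 2394 for liver and 1015 for spleen against lymph node, and for liver against spleen it called 1378 without liver replicate 1 and 1381 without spleen replicate 2. In iNKT1-like cells (2140, 1125 and 352 of 9323 genes by edgeR) DESeq2 called 761, 661 and 210. The same counts were 328, 609 and 195 in thinned libraries, and 1081, 1405 and 878 for liver against spleen without liver replicate 1, spleen replicate 1 and spleen replicate 2. Without lymph node replicate 2 they were 423 for liver and 149 for spleen against lymph node, and the latter was 234 without spleen replicate 2 and 210 without lymph node replicate 1. Lower resolution gave 3100 and 1379 against lymph node, and keeping the unnamed clusters 2506 and 1037. The share of cells with any receptor gene in liver, spleen and lymph node was 8.87%, 12.1% and 14.7% at 500 UMIs per cell and 42.7%, 35.7% and 37.1% with no thinning. With no thinning, the mean co-detection ratio was 1.17 for Izumo1r and Cd96 and 1.29 for Izumo1r and Btla in liver, and 0.809 for Pdcd1 and Cd96 in lymph node. The last was 0.991 within iNKT1-like cells (under 1 expected cell in each library), 0.697 within clusters and 0.662 without iNKT2-like cells. Within clusters, Pdcd1 and Izumo1r stood at 1.53 and Izumo1r and Cd96 at 0.910 in lymph node. Ctla4, Lag3 and Tigit were limited by their few UMIs.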
